A study of Mus musculus with 12 samples.

Results

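The 9 genes described here are the receptor gene Csf1r, its ligand genes Csf1 and Il34, and 6 genes best known from phagocytes and other blood cells (Cd68, Laptm5, Tyrobp, Ncf1, Cyba and Ptprc). They were chosen by symbol, with earlier results of these arrays known, and are 9 of the 18194 genes with a probe set of their own. All 21 probe sets that the platform annotation pairs with only 1 of these symbols were read, out of 45101 on the array. The probe set with the highest mean over the 12 arrays is called the lead probe set of its gene. The levels that chose the lead probe sets are given as a description and without a test.

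The cells were A2C12, a line grown from a lung tumour of mice that carry both a c-myc and a c-raf transgene, on the C57BL/6 background, so that every group shares these transgenes. A sort by content of the DNA dye Hoechst (5 µg/ml for 90 min) gave a side population (SP) of cells that pump the dye out, and the non-SP cells that retain it. Per the labels' protocol the dye was given with or without the pump inhibitor reserpine (50 µmol/l), and the labels, which are the same for all samples here, do not say which sorted cells received it. Of the 4 groups, SP and non-SP untreated received no antibody, and SP and non-SP anti-EpCAM received a monoclonal antibody to the epithelial adhesion protein EpCAM at 100 µg/ml for 48 h. Each group had 3 biological replicates, hence 12 Affymetrix mouse genome arrays, and all cells came from this 1 line. Values are log2 RMA signals, a summary of the probes of a probe set, so that a difference of 1 is a 2-fold change of signal, and the number of arrays limits their precision.

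Csf1r is the receptor tyrosine kinase through which macrophages and their precursors receive survival and growth signals, and Csf1 and Il34 encode its ligands. Outside blood cells the ligands come from stromal and epithelial cells, and the receptor also occurs in some carcinomas and in trophoblast. Cd68 and Laptm5 encode proteins of lysosome membranes. Tyrobp encodes DAP12, an adaptor that couples surface receptors to the kinase Syk. Cyba and Ncf1 encode a membrane and a cytosolic part of the NADPH oxidase that makes superoxide. Ptprc encodes CD45, the phosphatase that marks nearly all nucleated blood cells.

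The levels of the 9 genes are the main result, and the start regions of 3 of them are shown as a ligand gene and a phagocyte gene above background (Csf1 and Cd68) and as the gene below it whose lead probe set differed most with the antibody (Ncf1). The sequences are from RefSeq (GRCm38.p6), 5′ to 3′ on the gene's strand, from 250 bases before to 50 bases after the gene's start. Capitals mark GAGGAA, the core bound by the myeloid factor PU.1 and by other ETS factors, and TGANTCA, bound by AP-1, and both strands were searched.
Csf1, chr3:107760420-107760719, minus strand: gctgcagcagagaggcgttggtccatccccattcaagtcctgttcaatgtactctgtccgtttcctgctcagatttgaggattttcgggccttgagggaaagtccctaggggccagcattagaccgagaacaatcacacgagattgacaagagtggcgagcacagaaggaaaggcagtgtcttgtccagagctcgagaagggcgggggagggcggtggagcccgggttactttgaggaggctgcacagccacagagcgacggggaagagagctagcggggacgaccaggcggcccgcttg
Cd68, chr11:69666121-69666420, minus strand: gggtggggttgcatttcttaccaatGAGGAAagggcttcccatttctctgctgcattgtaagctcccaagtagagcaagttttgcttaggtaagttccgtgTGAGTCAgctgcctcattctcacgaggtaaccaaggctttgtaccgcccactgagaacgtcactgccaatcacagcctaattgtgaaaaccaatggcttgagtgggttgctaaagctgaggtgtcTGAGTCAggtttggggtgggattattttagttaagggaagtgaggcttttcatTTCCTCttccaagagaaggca
Ncf1, chr5:134229576-134229875, minus strand: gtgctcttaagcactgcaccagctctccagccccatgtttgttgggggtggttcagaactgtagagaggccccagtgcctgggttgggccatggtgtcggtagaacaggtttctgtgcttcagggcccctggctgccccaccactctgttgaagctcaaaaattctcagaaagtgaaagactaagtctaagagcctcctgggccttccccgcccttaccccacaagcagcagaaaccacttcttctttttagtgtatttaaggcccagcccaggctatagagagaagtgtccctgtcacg
The Cd68 window held GAGGAA 2 times and TGANTCA 2 times, and those of Csf1 and Ncf1 held neither. Of all 32851 start regions of this length in the table, 28.3% held GAGGAA and 7.81% held TGANTCA. The matches and their absence describe only the letters of these windows. The table also held windows for Laptm5, Cyba and Ptprc. Laptm5 had 1 GAGGAA match, Cyba had none, and of the 2 windows of Ptprc 1 had a match.

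To set a level against background, each lead probe set was compared with those of 73 sensory receptor genes (olfactory, vomeronasal and taste receptors). That these genes are silent in the line was assumed and not tested. Their means over the 12 arrays had a median of 4.27, and the 95th percentile, 5.88, served as the limit. The highest of these means was 7.11, above those of the lead probe sets of Laptm5 (6.99) and Il34 (6.35). Signals also depend on the probes, so the limit separates levels only roughly, and 63.4% of all genes lay above it. With this limit 5 of the 9 genes lay above background (Csf1r, Csf1, Cd68, Laptm5 and Il34) and 4 did not (Cyba, Ncf1, Tyrobp and Ptprc). The lead probe sets of Csf1r, Csf1, Cd68 and Laptm5 passed the same percentile taken within each array on 12 of 12 arrays, and that of Il34 on 10. Just inside the limit was Il34 with a mean of 6.35, and just outside it Cyba with 5.29.

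**Figure D1:**
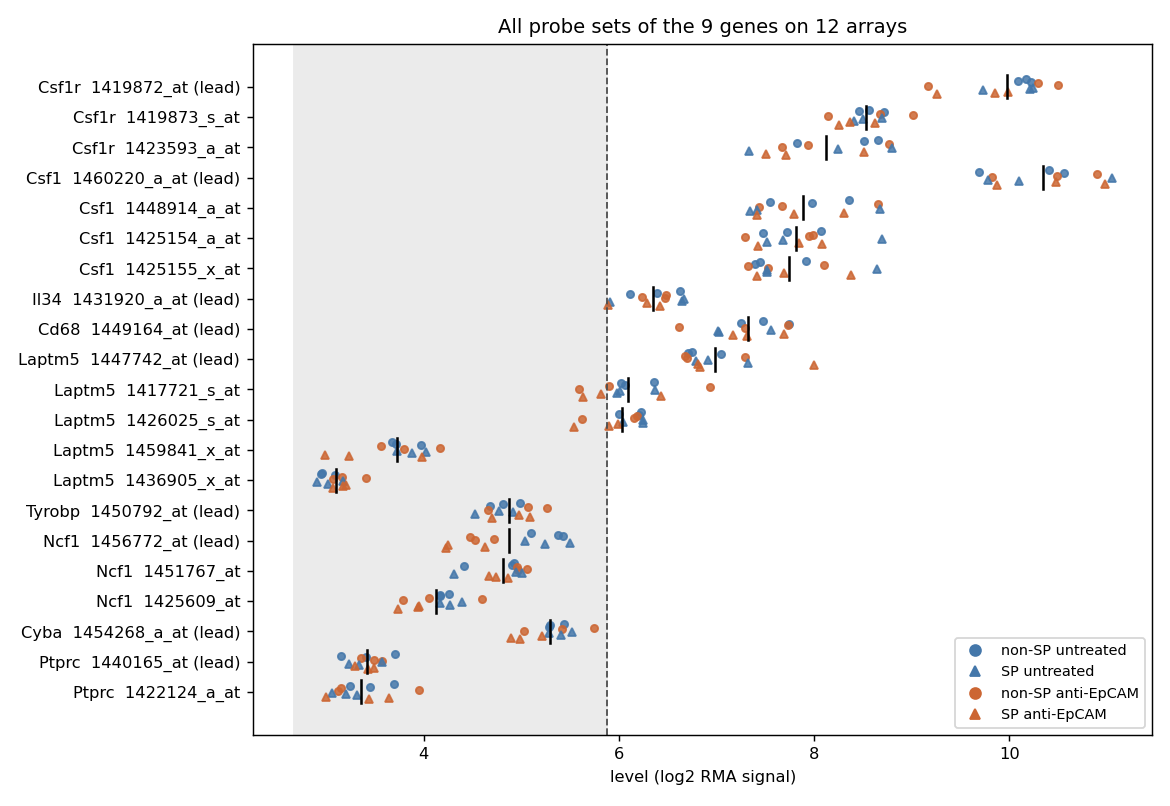
Level of all 21 probe sets of the 9 genes (rows) in log2 RMA signal on the 12 arrays, with circles for non-SP, triangles for SP, blue for untreated and orange for anti-EpCAM, and a black bar at each mean. The dashed line is the limit of 5.88 and the grey area runs down to the lowest sensory receptor mean. All 7 probe sets of Csf1r and Csf1 lie to the right of the line, and all 7 of Tyrobp, Ncf1, Cyba and Ptprc to its left.

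Csf1r was far above the limit in every group. Its lead probe set (1419872_at) read 10.18, 10.09 and 10.22 in non-SP untreated replicates 1, 2 and 3, and 10.24, 10.21 and 9.73 in SP untreated. With the antibody it read 10.29, 10.50 and 9.17 in non-SP and 9.99, 9.85 and 9.26 in SP cells. The lowest pair was that of anti-EpCAM replicate 3, and the ranges overlapped between SP and non-SP cells of each treatment and between treated and untreated cells of each fraction. All 3 SP anti-EpCAM arrays lay below all 3 non-SP untreated ones, a pair that differs in both fraction and antibody. This pair was singled out after its values were seen, and the share of all genes that did so was not computed for it. The medians of the SP anti-EpCAM arrays (5.74 to 5.75) also lay below those of the non-SP untreated arrays (5.81 to 6.02). For the antibody within a fraction, 6.62% of all genes were lower without overlap in non-SP and 8.04% in SP cells. With arrays centred on their medians these shares were 1.22% and 1.91%. The group means were 10.16 ± 0.07 (SD, n = 3) in non-SP untreated, 10.06 ± 0.29 (SD, n = 3) in SP untreated, 9.99 ± 0.72 (SD, n = 3) in non-SP anti-EpCAM and 9.70 ± 0.39 (SD, n = 3) in SP anti-EpCAM cells. The other probe sets of Csf1r had means of 8.54 (1419873_s_at) and 8.12 (1423593_a_at), and both passed on 12 of 12 arrays. Over the 12 arrays they correlated with the lead probe set at r = 0.86 and 0.56.

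Csf1, the ligand first named for growing macrophage colonies, was also high everywhere. Its lead probe set (1460220_a_at) read 10.41, 9.69 and 10.57 in non-SP untreated and 11.05, 9.78 and 10.10 in SP untreated replicates 1, 2 and 3. It read 10.90, 10.49 and 9.82 in non-SP anti-EpCAM and 10.48, 10.98 and 9.88 in SP anti-EpCAM cells. In both fractions the low readings were those of untreated replicate 2 and anti-EpCAM replicate 3. The other 3 probe sets had means of 7.88, 7.81 and 7.74, passed on 12 of 12 arrays each, and correlated with the lead at r = 0.78, 0.74 and 0.76. Receptor and ligand signals were thus above the limit together in all 12 samples. Between samples, Csf1r and Csf1 correlated at r = 0.48 over the 12 arrays, where SP and non-SP arrays of the same replicate number resemble each other.

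Il34, the other ligand, lay close to the limit, with 6.63, 6.40 and 6.11 in non-SP untreated and 6.67, 6.65 and 5.91 in SP untreated cells. With the antibody it read 6.48, 6.23 and 6.47 in non-SP and 6.29, 5.89 and 6.42 in SP cells. SP untreated replicate 3 and SP anti-EpCAM replicate 2 were lowest, and the groups overlapped. With the 99th percentile of the sensory receptor genes as the limit Il34 no longer passed, and 4 of the 9 genes did.

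Cd68, the macrosialin gene, was above the limit in every sample. Its only probe set read 7.48, 7.25 and 7.75 in non-SP untreated and 7.56, 7.02 and 7.03 in SP untreated cells, and 7.74, 6.61 and 7.29 in non-SP anti-EpCAM and 7.69, 7.17 and 7.32 in SP anti-EpCAM cells. The single low reading was that of non-SP anti-EpCAM replicate 2. Laptm5, a lysosomal protein of blood cells, depended on the probe set. Its lead had a mean of 6.99 ± 0.39 (SD, n = 12), 2 others had 6.09 and 6.03, and the remaining 2, both of the x_at kind, had 3.73 and 3.10. With the mean of all 5 probe sets Laptm5 did not pass the limit.

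Tyrobp, Cyba, Ncf1 and Ptprc had no probe set above the limit and passed on 0 of 12 arrays. Ptprc ranged from 3.15 to 3.71 in its lead and had a mean of 3.36 in its other probe set. Tyrobp ranged from 4.53 to 5.27, with a mean of 4.87. The mean of Tyrobp exceeded that of 71.2% of the sensory receptor genes, and that of Ptprc exceeded 23.3%. Cyba and Ncf1 exceeded 82.2% and 71.2%. A level within this range can still come from a transcript of low abundance, which these signals cannot separate from background.

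The same limit was applied to lists of related genes and of cell type markers. Of all genes 63.4% lay above it, and each count below is to be read beside that share. In the list of the Csf1r axis, 14 of 19 measured genes lay above the limit, which by itself does not set this list apart. Among them were Pdgfra at 9.59 and Pdgfrb at 10.54, which encode related receptor kinases, Kitl at 10.63, the ligand gene of Kit, and Csf2 at 9.22, which encodes GM-CSF. Kit itself, at 4.63, did not pass. Spi1, which encodes PU.1, was at 6.04 and passed on 8 of 12 arrays, Runx1 at 6.40 on 11, and Irf8, a myeloid factor gene, at 5.75 on 3. The other measured transcription factor genes of this list, Cebpb at 12.38, Maf at 8.28 and Cebpa at 6.99, passed on 12 of 12 arrays. Of the oxidase genes 3 of 9 passed (Rac1, a widely used GTPase, at 11.95, Noxo1 at 6.34 and Ncf4 at 6.40). Cybb, the catalytic partner of Cyba, was at 4.62 and passed on 1 array. Of the genes of ITAM signalling, in which DAP12 acts, 7 of 13 passed. Zap70, a kinase gene known from T cells, was at 8.86 and passed on 12 of 12 arrays. Syk was at 6.50, Trem2, a receptor that uses DAP12, at 6.21, and the adaptor gene Fcer1g at 6.06. Lysosome genes were above it in 13 of 14 cases, with Ctsb at 13.05 and Lamp1 at 12.37. The exception was Ctss, a protease gene of antigen presenting cells, at 3.74.

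Of 20 macrophage markers 5 lay above the limit. These were the endotoxin receptor gene Cd14 at 8.94, Siglec1 at 6.52, Ccr2 at 6.41, Lyz2 at 6.22 and Fcgr1 at 5.96. Of the 15 others, Adgre1 at 4.67, Itgam at 3.87, Mrc1 at 3.77 and Aif1 at 4.25 passed on 0 of 12 arrays, as did C1qa, C1qb and C1qc. These examples were picked after their levels were seen. Of 15 leukocyte markers 4 passed (Arhgdib at 8.78, Itgb2 at 6.96, Cd53 at 6.68 and Vav1 at 6.03), and of 8 neutrophil markers 1 (S100a8 at 7.90). Another neutrophil marker, S100a9, was at 4.28 and passed on 0 of 12 arrays. Of 12 lymphocyte markers 3 passed, Cd8a at 6.90, Cd4 at 6.82 and Cd3e at 6.76, each on 12 of 12 arrays. Among the 9 that did not pass were the T cell receptor genes Cd3g at 3.67 and Cd3d at 5.21, and Cd2 at 4.08. Of all genes 63.4% passed. The summed linear signal of the macrophage list ran from 1081 to 1369 in non-SP untreated, from 1121 to 1553 in SP untreated, from 1091 to 1382 in non-SP anti-EpCAM and from 1066 to 1209 in SP anti-EpCAM samples, so the 4 ranges overlapped. These sums give most weight to Cd14, the highest gene of the list, and 15 of the 20 genes lay below the limit. The overlap of the sums therefore says little about the list as a whole. In sorted samples like these, few cells with much transcript and many cells with little cannot be told apart.

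Of 15 epithelial markers 8 lay above the limit, among them Krt19 at 11.71, Tjp1 at 10.47, Krt8 at 8.77, Epcam at 8.11, Cldn3 at 6.93, Grhl2 at 6.68, Krt18 at 6.55 and Cdh1 at 6.35. Esrp1, Cldn4, Cldn7, Ocln and Krt7 did not pass, nor did Sftpc and Nkx2-1, which mark alveolar type II cells and lung epithelium. Of 12 stromal markers 6 passed, with Acta2 at 12.77, Col1a2 at 12.58, Col3a1 at 12.27 and Col1a1 at 11.50. The proteoglycan gene Dcn passed at 9.27 and the endothelial gene Kdr at 6.70. Lum at 4.15, Thy1 at 5.28 and the endothelial genes Pecam1, Cdh5, Tek and Tie1 did not pass. Since 63.4% of all genes passed, these counts by themselves show neither an epithelial nor a stromal identity. High levels of some epithelial genes stood beside high levels of collagen and smooth muscle actin genes.

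**Figure D2:**
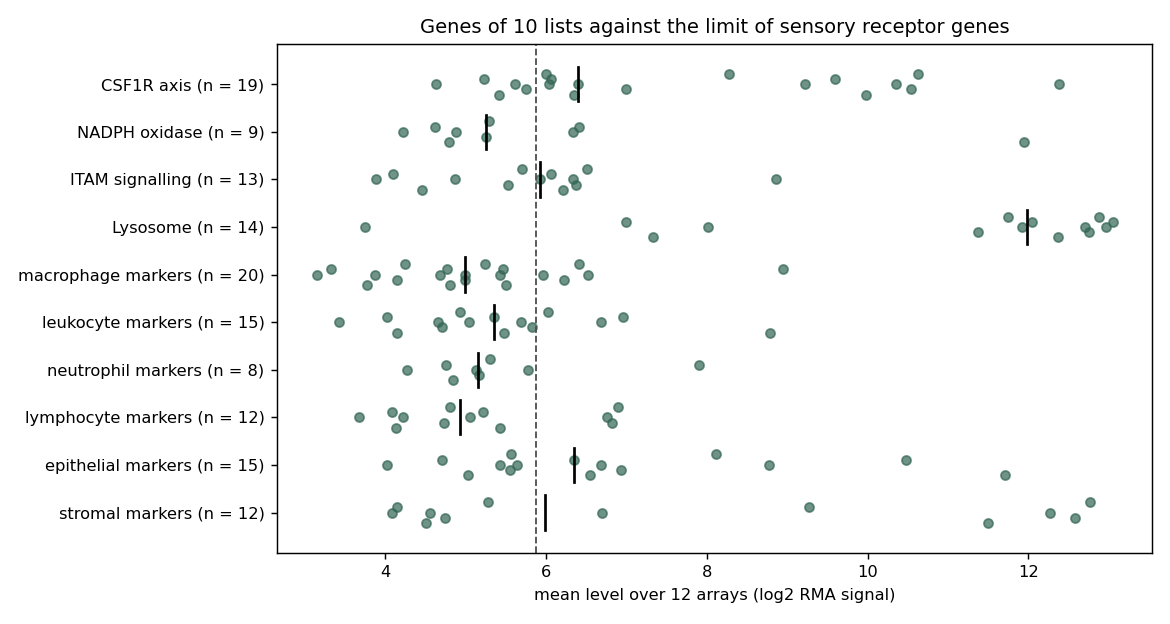
Mean level over 12 arrays in log2 RMA signal of each measured gene (points) in 10 lists (rows), with a black bar at each list's median and the dashed line at 5.88. The lysosome list lies almost wholly to the right, while 15 of 20 macrophage and 11 of 15 leukocyte markers lie to the left.

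The antibody comparison was read first on cultures. SP and non-SP arrays with the same replicate number and treatment deviated together from their group means. Their mean was therefore taken as 1 value, giving 3 with and 3 without the antibody. The labels do not state that such a pair shares a culture, and here and below culture is only a name for the pair. With limma 0 of 18194 genes (0%) passed an adjusted p of 0.05, and 461 had an unadjusted p under 0.05, of which 31 were higher and 430 lower with the antibody. With arrays centred on their medians this split became 257 higher and 86 lower. The median difference of all genes was -0.11. Without the antibody Ncf1 had culture means of 5.07, 5.44 and 5.34, and with it 4.36, 4.67 and 4.38. Its difference was -0.81 ± 0.18 (SE), with a 95% interval from -1.21 to -0.42 (limma adjusted p = 0.991, and 0.918 to 1 over the alternatives). Relative to all genes it was -0.70, and it ranked 4 by p. Since Ncf1 was chosen with this difference known, these values describe it only. For the other 8 genes the interval included 0, and the differences ran from -0.27 ± 0.26 (SE) for Csf1r to 0.18 ± 0.19 (SE) for Tyrobp.

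The differences of the other genes, in the order of their roles, were 0.16 for Csf1 and -0.09 for Il34, -0.04 for Cd68 and 0.13 for Laptm5, -0.16 for Cyba and 0.04 for Ptprc. The intervals of Csf1r (-0.84 to 0.31) and Csf1 (-0.52 to 0.84) leave room for changes of either sign. Centring each array on its median turned Il34, Cd68 and Cyba to 0.074, 0.12 and 0.011. Without the anti-EpCAM culture of replicate 3 the difference of Csf1r was 0.047, and without the untreated culture of replicate 2 that of Csf1 was -0.11. Without the anti-EpCAM culture of replicate 2 that of Laptm5 was -0.17. The other 2 probe sets of Csf1r gave -0.04 and -0.21, and the other 3 of Csf1 gave -0.01, -0.10 and -0.00.

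**Figure D3:**
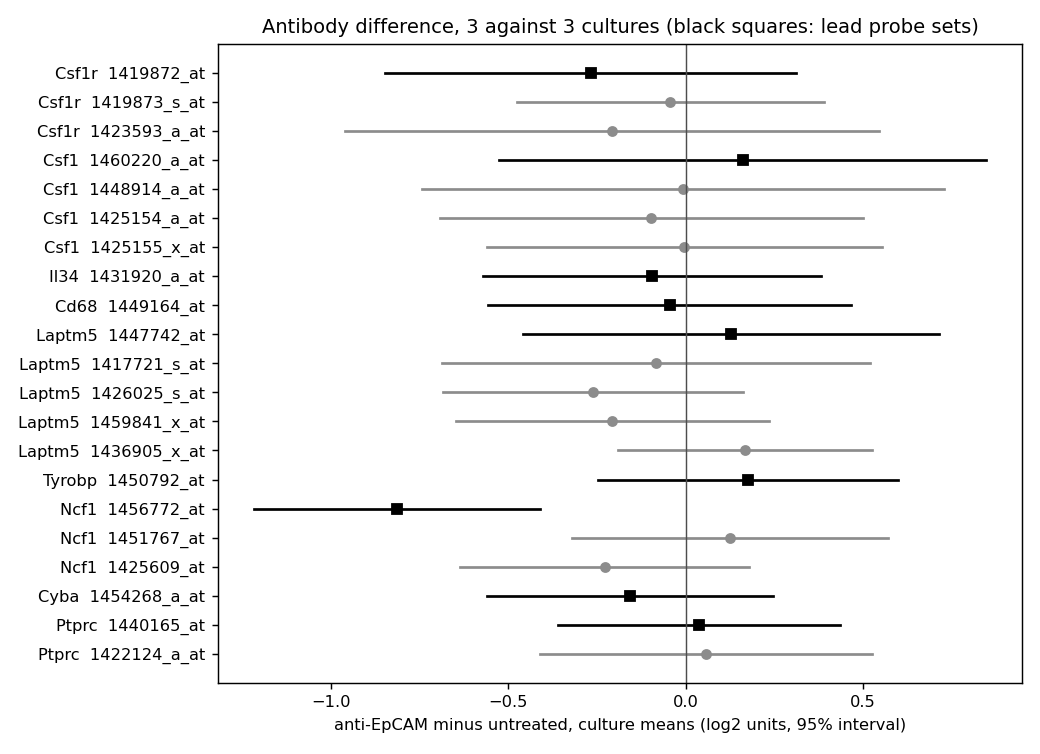
Anti-EpCAM minus untreated difference of each of the 21 probe sets in log2 units with its 95% interval, from 3 against 3 culture means in a limma fit over all probe sets with 1 symbol, black squares for lead and grey circles for other probe sets. The lead probe set of Ncf1 has the interval that lies farthest from 0, and the other 2 of Ncf1 have intervals that include 0.

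The arrays behind the Ncf1 difference did not overlap. Its lead probe set (1456772_at) read 5.10, 5.38 and 5.43 in non-SP untreated and 5.04, 5.50 and 5.25 in SP untreated cells. With the antibody it read 4.48, 4.72 and 4.53 in non-SP and 4.25, 4.63 and 4.23 in SP cells. All 6 treated arrays lay below all 6 untreated ones, from 4.23 to 4.72 against 5.04 to 5.50. Of all genes 0.907% showed this, and 0.0605% showed the opposite. With arrays centred on their medians Ncf1 still did not overlap, with 4.84 as the lowest untreated and 4.74 as the highest treated value, and 0.176% of genes did so. All these readings lay below the limit of 5.88.

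In the other 2 probe sets of Ncf1 the 6 treated and 6 untreated arrays overlapped. 1451767_at read 4.92, 4.91 and 4.41 in non-SP untreated and 4.94, 5.01 and 4.31 in SP untreated cells, against 4.96, 5.07 and 4.97 in non-SP anti-EpCAM and 4.67, 4.74 and 4.86 in SP anti-EpCAM cells. Its non-SP groups did not overlap, with the treated arrays higher, opposite to the lead, by 0.25 ± 0.21 (SE), and its SP groups did. Of all genes 1.19% were higher without overlap in non-SP cells, or 6.21% with centred arrays. Its difference on culture means was 0.13 ± 0.20 (SE). 1425609_at read 4.39, 4.17 and 4.27 in SP untreated against 3.95, 3.94 and 3.74 in SP anti-EpCAM cells, so its SP groups did not overlap, with the treated arrays lower as in the lead, and differed by -0.40 ± 0.19 (SE). Of all genes 8.04% were lower without overlap in SP cells, or 1.91% with centred arrays. The non-SP groups of 1425609_at did overlap, with 4.26, 4.17 and 4.17 in untreated and 4.06, 4.60 and 3.78 in treated cells, and its difference on culture means was -0.23 ± 0.18 (SE). Neither separation was read with centred arrays, and the shares of all genes come from lead probe sets, which these 2 are not. Over the 12 arrays 1451767_at correlated with the lead at r = -0.22, and 1425609_at at r = 0.54. With the mean of the 3 probe sets Ncf1 differed by -0.31. The annotation gives the accession AI844633 for the lead and BE370703 for the other 2.

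**Figure D4:**
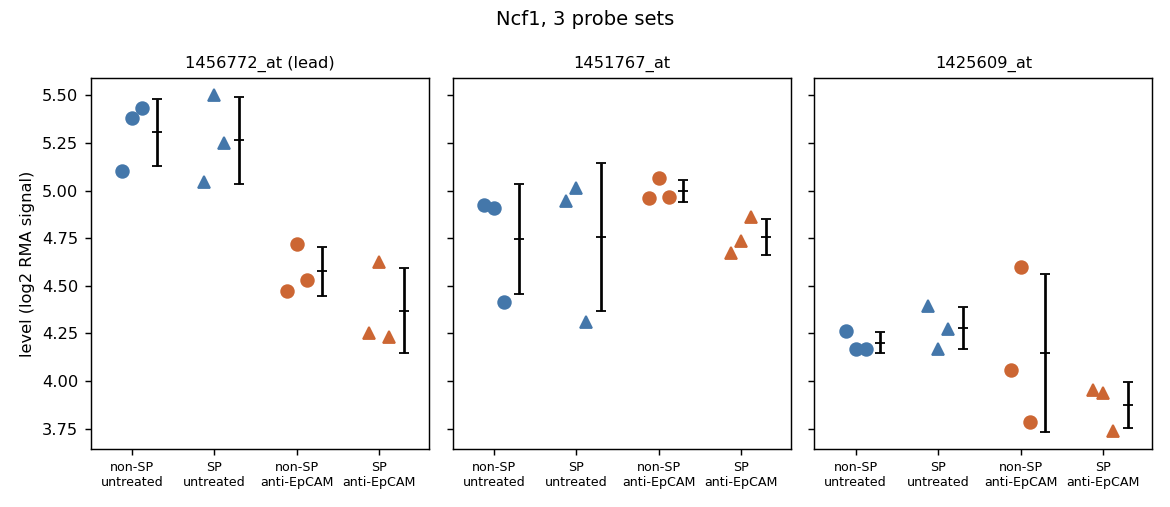
Level of the 3 probe sets of Ncf1 in log2 RMA signal by group (points are arrays, n = 3 a group, with mean and SD in black). The untreated and treated arrays separate in the lead probe set on the left. In 1451767_at the non-SP groups separate with the treated arrays higher and the SP groups overlap, and in 1425609_at the SP groups separate with the treated arrays lower and the non-SP groups overlap.

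Within the fractions, Ncf1 differed with the antibody by -0.73 ± 0.18 (SE) in non-SP and by -0.90 ± 0.18 (SE) in SP cells (limma adjusted p = 0.988 and 0.776). With the mean of its 3 probe sets these were -0.18 and -0.43. Of the 9 genes 1 (Ncf1) had non-overlapping lower arrays in non-SP cells, where 6.62% of all genes did. In SP cells 2 did (Ncf1 and Cyba), against 8.04% of all genes. None of the 9 was higher without overlap, where 1.19% of all genes were in non-SP and 0.434% in SP cells. With centred arrays 6.21% of all genes were higher and 1.22% lower in non-SP cells. In SP cells 4.79% were then higher and 1.91% lower, and Ptprc was higher without overlap in SP cells. Cyba read 5.52, 5.29 and 5.41 in SP untreated against 5.21, 4.90 and 4.99 in SP anti-EpCAM cells, and 5.44, 5.30 and 5.29 against 5.75, 5.42 and 5.03 in non-SP cells. Its SP groups overlapped once arrays were centred. Cyba differed by -0.37 ± 0.18 (SE) in SP and 0.06 ± 0.18 (SE) in non-SP cells. The difference between these, the interaction, was -0.43 ± 0.26 (SE) and did not pass (limma adjusted p = 1.00). Csf1r differed by -0.17 ± 0.31 (SE) in non-SP, which was 0.24 without the array of non-SP anti-EpCAM replicate 3, and by -0.36 ± 0.31 (SE) in SP cells. With limma 0 genes passed in either fraction, with 585 and 835 at an unadjusted p under 0.05.

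The fraction comparison asks how SP cells differ from the other cells of the same treatment, and no member stood apart. With limma 0 of 18194 genes (0%) passed in untreated and in treated cells, with 4 and 127 at an unadjusted p under 0.05, or 305 and 1311 with culture as a block. Csf1r differed by -0.10 ± 0.31 (SE) in untreated and by -0.29 ± 0.31 (SE) in treated cells, and Csf1 by 0.09 ± 0.38 (SE) and 0.04 ± 0.38 (SE). In untreated cells the 95% interval ran from -0.76 to 0.56 for Csf1r and from -0.74 to 0.92 for Csf1. The SE and intervals of SP minus non-SP, and the SE of the interaction above, come from the fit without pairing. They therefore include spread between cultures. With culture as a block the differences were the same and 0 genes passed. In treated cells the limma adjusted p was then 0.628 for Csf1r and 0.958 for Csf1. None of the 9 genes had SP arrays all above or all below the non-SP arrays in either treatment. Among all genes 1.24% were all above and 1.13% all below in untreated cells, and 0.572% and 1.78% in treated cells.

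Within single cultures, SP minus non-SP for Csf1r was 0.07, 0.12 and -0.49 in untreated replicates 1 to 3 and -0.31, -0.65 and 0.09 in the treated ones. Its s_at probe set gave 0.14, 0.04, -0.32, -0.31, -0.38 and 0.11 in the same order, so both were lower in SP cells in the same 3 cultures. The third probe set (1423593_a_at) gave 0.14, -0.26, -0.49, -0.25, -0.43 and 0.03 and was lower in 4, since it was also lower in untreated replicate 2. Csf1 was higher in SP cells in 4 of 6 cultures, Cd68 in 3 and Ncf1 in 1. Laptm5 was higher in 6 of 6, by 0.17, 0.09 and 0.27 in untreated and 0.13, 0.71 and 0.13 in treated cultures, as were 0.682% of all genes, and 0.786% were lower in all 6. Laptm5 was singled out after its values were seen. Its differences in the fit were 0.18 ± 0.30 (SE) and 0.32 ± 0.30 (SE). Its other 4 probe sets were higher in SP cells in 2, 3, 3 and 2 cultures, and with the mean of all 5 the treated difference was -0.11. The treated culture numbered 2 held the highest Laptm5 reading, in SP cells, and without that array the treated difference was -0.074. On the SP and non-SP arrays of that culture the actin control signals at the 3′ end exceeded those at the 5′ end by 1.03 and 0.895, against at most 0.733 elsewhere. The part of this in the result was not tested. Without both arrays Laptm5 differed by 0.13 and Csf1 by -0.18 in treated cells. In untreated cells Csf1r differed by 0.066 without the array of SP replicate 3. Cyba differed by 0.07 ± 0.18 (SE) in untreated and by -0.37 ± 0.18 (SE) in treated cells.

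**Figure D5:**
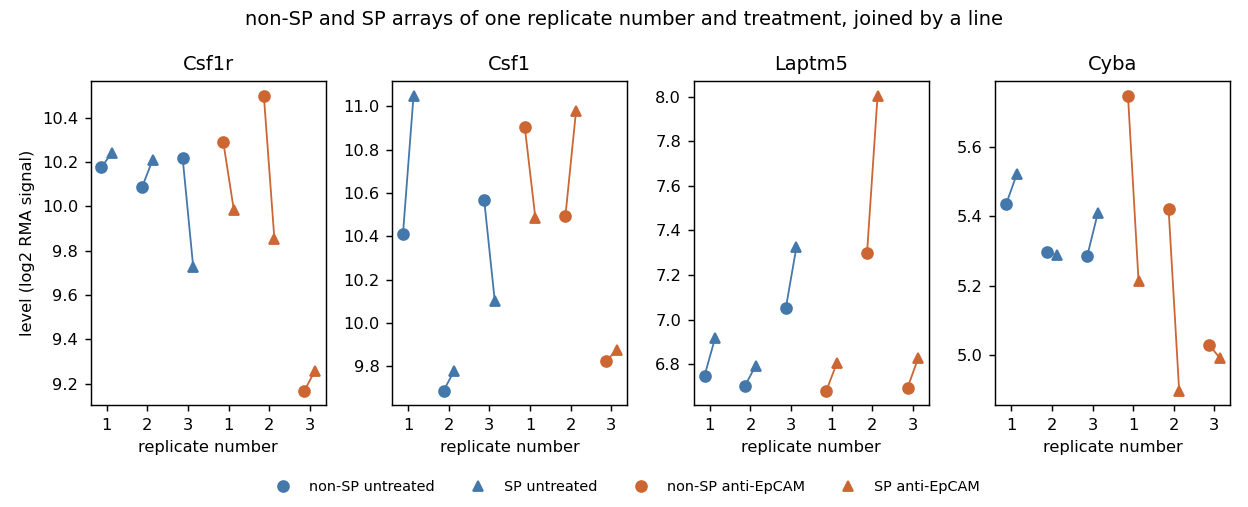
Lead probe set levels of Csf1r, Csf1, Laptm5 and Cyba in log2 RMA signal by treatment and replicate number. A line joins the non-SP (circle) to the SP array (triangle) of the same treatment and number. The SP array is the higher one in all 6 Laptm5 pairs, and the pairs of the other 3 genes go both ways, and the anti-EpCAM pair of replicate 3 is the lowest for Csf1r.

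No gene of the lists passed. With the antibody 0 genes of the 10 lists passed over all genes on culture means. The Csf1r axis had a median difference of -0.04 over 19 genes, the oxidase list -0.16 over 9, ITAM signalling -0.12 over 13, the lysosome list -0.09 over 14, macrophage markers -0.01 over 20 and leukocyte markers -0.13 over 15, beside -0.11 over all genes. Neutrophil markers had the lowest median of the 10 lists, -0.20 over 8 genes, of which 7 lay below the median of all genes. Lymphocyte markers had -0.01 over 12, epithelial markers -0.13 over 15 and stromal markers -0.11 over 12. Among the genes with a mean over 12 arrays above the limit, Fcer1g, the adaptor of Fc receptors, had the lowest p of its list. It read 6.30 without the antibody and 5.82, below the limit, with it, a difference of -0.48 ± 0.16 (SE) (limma adjusted p = 0.991). Syk differed by -0.24, Runx1 by -0.36, Noxo1 by -0.31, Itgb2 by -0.35 and Lyz2 by -0.30. Higher among the genes chosen by the same rule were Acta2 by 0.23, Krt18 by 0.22, Siglec1 by 0.14 and Kdr by 0.13. Flt3 was higher by 0.12, Ncf4 by 0.08, Fcgr1 by 0.06 and Cd4 by 0.01, the rest were lower, and none passed. Values of these genes with centred arrays are not given.

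The 5 genes above the limit whose pattern over the 12 arrays was most like that of Csf1r were Il18bp, Ggt5, Rhbdf2, Krt5 and Inppl1, with r from 0.910 to 0.943 among 11101 genes. With centred arrays their r were 0.885, 0.914, 0.859, 0.901 and 0.703. For Ncf1 they were Mmp23, Usp3, Wars2, Selenoo and Klk1b21, with r from 0.870 to 0.897, and 0.665 to 0.874 with centred arrays. These are descriptions, since arrays of the same replicate number and treatment deviated together and array levels differed. Among the 9 genes the 36 pairs had r from -0.79 (Il34 and Laptm5) to 0.69 (Csf1r and Cyba).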

How the data were processed

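Per the labels' protocols, RNA of the sorted cells (200 ng) was amplified, labelled with biotin and hybridised to Affymetrix arrays. The deposited table holds log2 signals that the authors made by RMA, per the submitters' processing notes, which name no software version. Array medians ran from 5.72 to 6.06, so whether the arrays were scaled further is unknown. No column belonged to another series (0). Of 45101 probe sets, 34958 had 1 gene symbol in the platform annotation, 932 several and 9211 none. Groups were compared in R 4.3.3 with limma 3.58.1 (lmFit, eBayes, 1 lead probe set a gene, 18194 genes, no filter, two-sided, Benjamini-Hochberg over all genes, threshold 0.05), over all 12 arrays with 8 residual degrees of freedom, or over 6 culture means with 4. Nothing was imputed. P-values measure the spread between the samples labelled biological replicates.

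The pairing was checked on the data. Deviations from the group mean correlated at 0.55 to 0.84 between SP and non-SP arrays of the same number and treatment, and at -0.38 to -0.01 between untreated and treated arrays. The fit was also run on simulated data in which all arrays varied independently, with calls counted for the antibody in SP cells only. This does not cover the shared deviations of SP and non-SP arrays or the fraction comparisons. The 9 genes, the lists and the motifs were chosen with earlier results of these data known. By rule the text names the 9 genes, up to 4 genes of each list with the lowest p on culture means among those above the limit, the macrophage, leukocyte and epithelial markers above it, and the 5 genes most like Csf1r and Ncf1. Other list genes named with a level (for example Cybb, Kit, Ctss and Adgre1) were picked after their levels were seen. Alternatives were other scalings, limits, probe set rules and blocks, a filter and leaving out arrays. The alternatives added after the data were seen left out both arrays of the anti-EpCAM culture 2 and took culture as a random block. Tables and figures used Python 3.11.15, numpy 2.4.6, pandas 2.3.3 and matplotlib 3.10.9. Of the 152 listed genes, 137 were measured, and the rest were not analysed here.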

Additional observations from a re-analysis of the deposited data

How the results depend on the processing

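Under each alternative run, the 6 counts of called genes were 0 in all 108 settings, the fits with a replicate block among them, where the lowest adjusted p was 0.628 for SP against non-SP in treated cells and 0.490 for the antibody in SP cells. Of the differences given above, 11 of 24 kept their direction under each alternative, those of Ncf1 and Tyrobp among them, and 0 of 384 values passed the threshold. The number of genes above background was 4 with the 99th percentile and 4 with the mean of all probe sets, and otherwise 5, and 3 instead of 4 passed on each array with these settings. Antibody differences on culture means changed sign with centred arrays for Il34 (0.074), Cd68 (0.12) and Cyba (0.011), with a further quantile normalization for the same genes (0.056, 0.082 and 0.014), and with the mean of all probe sets for Laptm5 (-0.051). SP minus non-SP in treated cells changed sign for Laptm5 with the mean of all probe sets (-0.11) and for Csf1 without both arrays of the anti-EpCAM culture 2 (-0.18). Leaving out 1 culture at a time gave antibody differences from -0.25 to 0.16 for Cd68, -0.11 to 0.45 for Csf1, -0.43 to 0.047 for Csf1r, -0.29 to 0.033 for Il34, -0.17 to 0.28 for Laptm5 and -0.067 to 0.16 for Ptprc. Leaving out 1 array at a time gave -0.43 to 0.24 for Csf1r and -0.12 to 0.24 for Cyba with the antibody in non-SP cells. For SP against non-SP it gave -0.25 to 0.32 (treated) and -0.28 to 0.35 (untreated) for Csf1, -0.19 to 0.066 for Csf1r in untreated and -0.074 to 0.52 for Laptm5 in treated cells. The filter on low values gives no value for the 4 genes below the limit. With the replicate number as a block, 930 (non-SP), 1158 (SP) and 349 (culture means) genes had an unadjusted p under 0.05 with the antibody. Centred arrays turned the unadjusted split with the antibody from 94 higher and 491 lower to 560 and 88 in non-SP, and from 20 and 815 to 284 and 174 in SP cells, and quantile normalization to 416 and 169, and 168 and 233. The cause of these changes was not tested. The low signals of Ncf1, Tyrobp, Cyba and Ptprc limit what can be read from their differences.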
